A study of Mus musculus with 9 samples.

Results

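The genes described here are 28 genes of hepatic cholesterol handling, chosen by name for their known roles and found by gene identifier among the 54532 genes of the deposited table. They fall into 4 controllers of the transcription factor SREBP2 (Srebf2, Scap, Insig1, Insig2), 7 enzymes from acetyl-CoA to farnesyl diphosphate (Acat2, Hmgcs1, Mvk, Pmvk, Mvd, Idi1, Fdps), 11 enzymes from squalene to cholesterol (Fdft1, Sqle, Lss, Cyp51, Tm7sf2, Msmo1, Nsdhl, Hsd17b7, Ebp, Sc5d, Dhcr7) and 6 genes of uptake, transfer, esterification and export (Scarb1, Stard4, Soat2, Abca1, Abcg5, Abcg8). All 28 had a mean of at least 0.5 FPKM (fragments per kilobase of exon, divided by a total for each library as deposited) and were among the 11852 genes tested. The 18 enzymes of the 2 enzyme groups are called the synthesis enzymes below.

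RNA was sequenced from mouse liver in 3 groups of 3 libraries. The groups were wild type mice on plain drinking water (WT), mice lacking Cth on plain drinking water (knockout), and mice lacking Cth that drank water with 1% betaine (betaine). Cth encodes cystathionine gamma-lyase, which turns cystathionine into cysteine and makes hydrogen sulfide, and betaine is a methyl donor that returns homocysteine to methionine. The series set out to follow what loss of Cth does in chronic liver disease and included a betaine arm. The labels give no strain, age, sex, diet, duration of betaine or batch, and they do not say how the gene was deleted. Nor do they say that the replicates were separate animals, so p-values measure the spread between these samples, which may be technical.

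Hepatocytes build cholesterol from acetyl-CoA through mevalonate, farnesyl diphosphate, squalene and lanosterol. When sterol in the endoplasmic reticulum is low, SCAP escorts SREBP2 to the Golgi, where it is cleaved, and the released fragment turns on the genes of this route; INSIG proteins hold SCAP back when sterol is plentiful. SREBP proteins usually act beside the factors NF-Y and Sp1 at the promoters of these genes, and surplus cholesterol is esterified, exported to lipoproteins or secreted into bile.

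Promoter sequences of these genes were searched for the letters that SREBP, NF-Y and Sp1 are known to bind. RefSeq windows (GRCm38.p6) from 250 bases before to 50 bases after each gene's start were found for 22 of the 28 genes; a gene with several starts was counted if any of its windows held the motif. Both strands were searched for TCACNCCAC, a form of the sterol regulatory element, for CCAAT, bound by NF-Y, and for GGGCGG, bound by Sp1; no match printed here overlaps another. CCAAT was present in 19 of the 22, and in 14 of the 15 synthesis enzymes with a window, against 42.8% of the 8561 tested genes with a window and 37.4% of all 32851 windows. GGGCGG was also present in 19 of the 22, against 67.6% and 35.7%. TCACNCCAC was present in 1 of the 22, Hmgcs1, where it began 137 bases before the start, against 1.55% and 1.24%. A match is a description of letters, and nothing about binding follows from a match or from its absence.

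The stretches printed here belong to 6 enzymes that passed a test in one of the comparisons described later, and they were chosen because a match lies upstream of both the RefSeq and the GENCODE start. Each reads 5′ to 3′ on the gene's own strand, and capitals mark a motif (ATTGG is CCAAT on the opposite strand).
Hmgcs1, chr13:119690188-119690247, plus strand, sterol element in capitals: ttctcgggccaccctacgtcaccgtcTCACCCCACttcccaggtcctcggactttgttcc
Hmgcs1, chr13:119690278-119690337, plus strand, CCAAT and GGGCGG in capitals: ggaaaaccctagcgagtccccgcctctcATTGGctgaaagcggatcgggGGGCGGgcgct
Mvk, chr5:114444227-114444268, plus strand, CCAAT in capitals: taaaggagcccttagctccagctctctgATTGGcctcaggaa
Mvd, chr8:122443423-122443477, minus strand, CCAAT in capitals: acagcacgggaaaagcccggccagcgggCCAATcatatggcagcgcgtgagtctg
Lss, chr10:76531515-76531574, plus strand, CCAAT in capitals: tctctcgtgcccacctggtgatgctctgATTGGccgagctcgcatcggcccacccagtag
Nsdhl, chrX:72918473-72918520, plus strand, CCAAT in capitals: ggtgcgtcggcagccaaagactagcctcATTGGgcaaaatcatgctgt
Ebp, chrX:8193536-8193595, minus strand, CCAAT and GGGCGG in capitals: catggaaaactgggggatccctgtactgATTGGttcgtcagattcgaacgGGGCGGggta

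Cth stood at 285.4, 257 and 219 FPKM in the WT libraries and between 0.278 and 0.781 FPKM in the 6 libraries of mice lacking it. Recovered read totals ran from 15184982 to 17473962 per library. The totals by which the deposited FPKM were divided differed from these. They ran from 15289754 to 18087686 in WT, 13513377 to 14892391 in the knockout and 16066686 to 18528020 in the betaine libraries. WT replicate 3 stood apart from the other 8 libraries: it held 26.6 FPKM of Xist, which reached at most 0.0124 FPKM elsewhere, and Uty, Kdm5d, Eif2s3y and Ddx3y, which lie on the Y chromosome, were at 0 there and above 0 in the others. It also held 162 FPKM of Por, the electron donor of the sterol-modifying cytochromes, against 55.1 and 57.9 in the other WT libraries, and the highest WT value of 17 of the 18 synthesis enzymes. By Xist and the Y-linked genes this library had the pattern of female liver and the other 8 that of male liver. The WT group may thus mix the sexes, which the labels do not give. The part of sex in the results was not tested. Results are therefore given with and without this library. The hepatocyte markers (7 of 7 above the filter) summed to 49834 to 66467 FPKM in WT, 46681 to 57261 in the knockout and 34874 to 51335 in the betaine libraries; 2 were higher and 2 lower in the knockout, and 1 was lower with betaine, than in WT. Of the 8 Kupffer cell markers none passed the test in any comparison. Their sums were nevertheless wholly lower in the knockout, 83.9 to 101 FPKM, than in WT, 131 to 163, and ran from 63.4 to 170 with betaine. Lymphocyte marker sums were also wholly lower in the knockout (1.37 to 1.63 FPKM against 2.12 to 3.27 in WT). Intestinal marker sums were wholly higher (40.9 to 52.0 FPKM against 22.3 to 37.8). Only 1 lymphocyte and 1 intestinal marker were above the filter, and neither passed. Of the 7 sinusoidal endothelial markers 1 was lower in each of the comparisons with WT. Neither the sums nor the part of these markers in the results was tested. In whole liver, fewer cells of a type and less RNA per cell cannot be told apart. The FPKM of all genes summed to 373773 to 449224 in WT, 533733 to 584197 in the knockout and 379601 to 477667 in the betaine libraries, and this difference in scale is taken up with each comparison below.

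Of the 28 genes 4 passed the test between knockout and WT. Ebp, Nsdhl and Tm7sf2, 3 of the 11 enzymes between squalene and cholesterol, were higher in the knockout, and Stard4, a cytosolic sterol carrier, was lower. None of the 4 SREBP2 controllers and none of the 7 mevalonate enzymes passed the test. Over the 18 synthesis enzymes the median log2 difference was 0.29, beside 0.02 over all genes tested. Of the 18, 13 lay above 0, against 51.2% of all genes. The median of the synthesis enzymes was −0.10 on the TPM scale described later. With 1 library left out it ranged from 0.080 (without WT replicate 2) to 0.52 (without knockout replicate 2), and it was 0.17 without knockout replicate 1. The 3 genes that rose are set against 12.8% of all genes that rose in this comparison, and the 1 that fell against 12.7% that fell, so the share of these genes that changed was near or under the background.

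**Figure D1:**
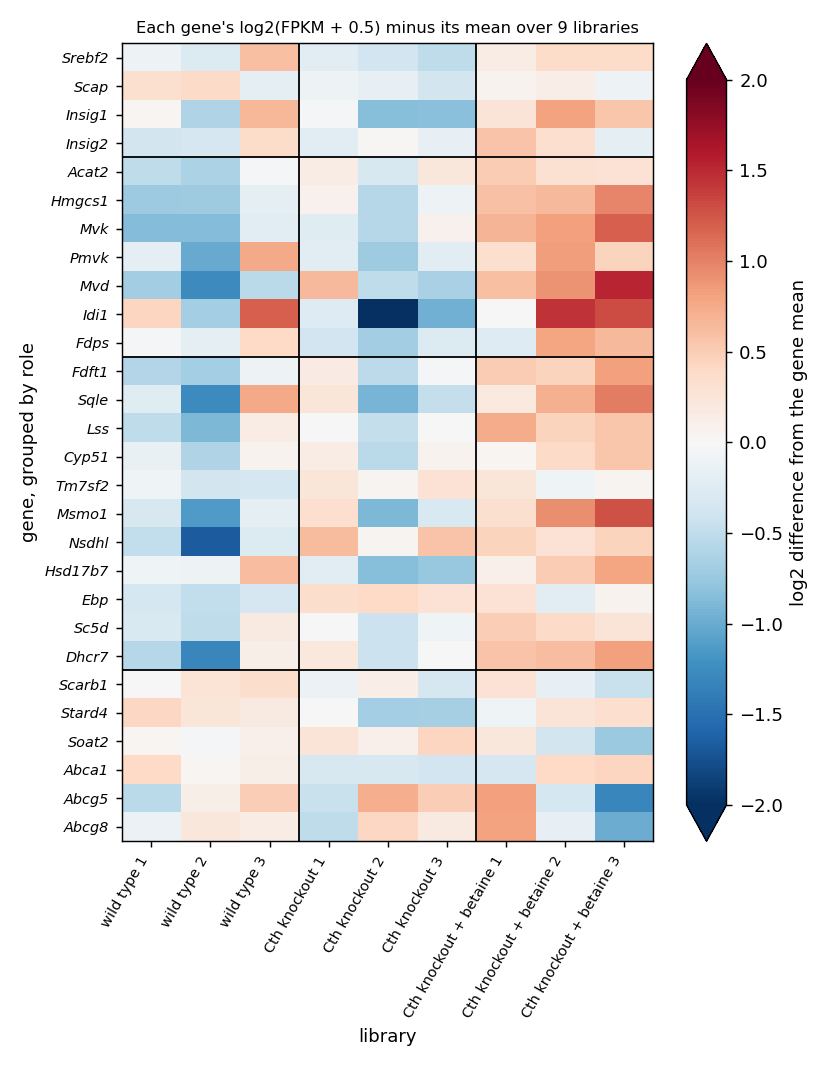
Each row is 1 of the 28 genes and each column 1 library; colour gives the log2(FPKM + 0.5) of a gene minus its mean over the 9 libraries, and black lines separate the 3 groups and the 4 roles. The betaine columns are mostly red over the synthesis enzymes, WT replicate 2 is mostly blue (the lowest of 9 libraries for 13 of the 18), and the Ebp, Nsdhl and Tm7sf2 rows turn from blue to red already in the knockout.

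Ebp is the isomerase that shifts the double bond in the sterol ring late in the route (ENSMUSG00000031168, mm10 chrX:8185329-8193512, minus strand). It stood at 91.1, 82.5 and 91.2 FPKM in the WT libraries, 148, 152 and 142 in the knockout libraries and 141, 99.2 and 122 in the betaine libraries. Every knockout library lay above every WT library, the knockout libraries lay close together, and betaine replicate 2 fell nearest to WT. The log2 difference between knockout and WT was 0.74 ± 0.15 (SE, n = 3 against 3; limma adjusted p = 0.0100), a ratio of mean FPKM of 1.67. It stayed past the threshold in each of the 9 fits that left out 1 library.

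Nsdhl, a dehydrogenase of the complex that strips the methyl groups from carbon 4 of lanosterol derivatives, is also X-linked (ENSMUSG00000031349, chrX:72918557-72958514, plus strand). Its levels were 15.0, 6.37 and 17.7 FPKM in the WT libraries, 33.4, 22.2 and 32.0 in the knockout libraries and 29.1, 26.2 and 29.2 in the betaine libraries. The knockout and betaine libraries occupied the same range, and all 6 lay above the 3 WT libraries, of which WT replicate 2 was by far the lowest. Knockout minus WT was 1.23 ± 0.33 on the log2 scale (adjusted p = 0.0260), a ratio of means of 2.25. Without WT replicate 3 it was 1.504 (adjusted p = 0.0178), and leaving out any 1 of the 3 knockout libraries ended the call, with adjusted p up to 0.0763.

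Tm7sf2 encodes a sterol reductase that acts after the lanosterol demethylase (ENSMUSG00000024799, chr19:6062821-6068373, minus strand). It read 29.7, 24.3 and 24.4 FPKM in the WT libraries, 37.3, 32.7 and 38.5 in the knockout libraries and 37.2, 29.5 and 32.8 in the betaine libraries. Knockout and WT did not overlap, while the betaine libraries bridged both, with betaine replicate 2 just under the highest WT library. The difference was 0.46 ± 0.14 (adjusted p = 0.0380), and it no longer passed without WT replicate 3 (0.42, adjusted p = 0.0750); the call also ended without WT replicate 2, any 1 knockout library or betaine replicate 3 (adjusted p up to 0.119).

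Stard4 binds cholesterol and carries it between membranes (ENSMUSG00000024378). Its FPKM were 18.7, 16.6 and 15.9 in WT, 14.0, 8.54 and 8.68 in the knockout and 13.2, 16.9 and 17.8 with betaine. All knockout libraries lay under all WT libraries, and the betaine libraries reached back into the WT range except for replicate 1. Knockout minus WT was −0.72 ± 0.20 (adjusted p = 0.0278) and −0.77 without WT replicate 3 (adjusted p = 0.0383); the call ended without WT replicate 1, WT replicate 2, knockout replicate 2 or knockout replicate 3 (adjusted p up to 0.107).

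Separation of the libraries gave a slightly longer list than the test. Knockout lay wholly above WT for the same 3 enzymes (23.6% of all genes did so) and wholly under WT for 4 genes, Fdps, Hsd17b7, Stard4 and Abca1 (23.2%). Hsd17b7, the reductase that works with Nsdhl, stood at 10.96, 10.8 and 18.2 FPKM in WT and 9.86, 6.19 and 6.68 in the knockout, and its difference of −0.76 ± 0.26 did not pass (adjusted p = 0.0580). Without WT replicate 3 the difference was −0.52 (adjusted p = 0.137). The 2 partners of one demethylation complex thus had log2 differences of opposite sign in the knockout, 1.23 for Nsdhl and −0.76 for Hsd17b7; the difference between the 2 genes was not tested. Abca1, which loads cholesterol onto apolipoprotein A-I, was at 17.8, 13.7 and 14.6 FPKM in WT and 10.6, 10.6 and 10.1 in the knockout, and its difference of −0.53 ± 0.20 did not pass either (adjusted p = 0.0816).

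Idi1, the isomerase of the isoprene building blocks, had the largest standard error of the 28 genes. It stood at 14.6, 6.49 and 25.4 FPKM in the WT libraries, 8.93, 1.53 and 5.31 in the knockout libraries and 10.6, 29.98 and 27.4 in the betaine libraries. Knockout replicate 2 was the lowest of the 9 libraries and betaine replicate 1 fell inside the WT range. The knockout difference of −1.54 ± 0.68 did not pass (adjusted p = 0.128), and it was −1.10 without WT replicate 3 (adjusted p = 0.281).

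Leaving out WT replicate 3 changed which genes passed in the knockout comparison. Acat2 (0.59, adjusted p = 0.0430) and Dhcr7 (0.85, adjusted p = 0.0379) joined Ebp and Nsdhl among the genes that were higher, so that 4 were higher against 9.99% of all genes. Scap (−0.56, adjusted p = 0.0209) joined Stard4 among those that were lower, 2 genes against 11.7% of all. The median of the 18 synthesis enzymes rose to 0.46 on the log2 scale.

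The scale of the libraries bears on this comparison. With every library rescaled to the same FPKM sum (TPM), the median of all genes in knockout minus WT moved from 0.02 to −0.32 and the calls over all genes from 1519 higher of 3029 to 584 higher of 4218. On that scale none of the 28 genes was higher (4.93% of all genes were) and 6 were lower (30.7% of all genes): Srebf2 (−0.83), Scap (−0.79), Hsd17b7 (−1.16), Scarb1 (−0.72), Stard4 (−1.12) and Abca1 (−0.93). Ebp (0.32, adjusted p = 0.0675), Nsdhl (0.82, adjusted p = 0.113) and Tm7sf2 (0.05, adjusted p = 0.791) stayed above 0 without passing. The median of the synthesis enzymes became −0.10, which is 0.22 above the median of all genes on that scale. Which scale is right cannot be told from these values.

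Addition of betaine to mice lacking Cth was compared with the knockout next. No single gene of the 28 passed the adjusted test, yet most synthesis enzymes had higher values. The median log2 difference of the 18 synthesis enzymes was 0.80, beside −0.00 over all genes. Of the 18, 15 lay above 0, against 49.8% of all genes. On the TPM scale all 18 did, but so did 78.6% of all genes. Of all 11852 genes only 5 passed in this comparison (0.0422%), so the absence of calls is shared with nearly the whole table; without the trend and robust settings of the fit the number of calls among the 28 was also 0. At an unadjusted p under 0.05, 16 of the 28 genes were higher, against 11.6% of all genes, and 1 was lower, Soat2, against 11%. The 16 comprised 12 synthesis enzymes, Srebf2, Insig1, Stard4 and Abca1. Betaine libraries lay wholly above knockout libraries for 13 of the 28 genes (15.6% of all genes) and wholly under them for 1, Ebp (14.7%). Fdps, which cleared the expression filter only with its betaine values, is among both the 16 and the 13.

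The 7 mevalonate enzymes had the highest median of the 4 roles, 0.93. Mvk, mevalonate kinase, stood at 3.87, 3.89 and 6.35 FPKM in the WT libraries, 6.28, 4.87 and 8.01 in the knockout libraries and 12.2, 13.6 and 17.8 in the betaine libraries. The betaine libraries were separate from all 6 others, and the lowest of them was well above the highest knockout library. Betaine minus knockout was 1.14 ± 0.23 (unadjusted p = 0.000755, adjusted p = 0.0837), a ratio of means of 2.28.

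Hmgcs1, the cytosolic synthase that makes HMG-CoA and the gene whose window holds the sterol element printed above, stood at 32.2, 32.3 and 47.1 FPKM in the WT libraries, 56.8, 36.0 and 49.5 in the knockout libraries and 80.3, 83.9 and 106 in the betaine libraries. Here too the 3 betaine libraries exceeded every other library, and knockout replicate 2 lay within the WT range. Its difference was 0.93 ± 0.21 (adjusted p = 0.0886). Idi1 had the largest difference, 2.14 ± 0.68 (adjusted p = 0.136), with the wide spread given before.

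Mvd, which decarboxylates mevalonate diphosphate, stood at 6.66, 4.26 and 7.41 FPKM in the WT libraries, 17.7, 7.66 and 6.83 in the knockout libraries and 16.99, 21.02 and 32.6 in the betaine libraries. Knockout replicate 1 exceeded the lowest betaine library, so the groups overlapped, and the difference was 1.17 ± 0.37 (adjusted p = 0.133). Pmvk, the kinase between Mvk and Mvd, was at 14.3, 7.90 and 28.1 FPKM in WT, 13.9, 9.79 and 14.1 in the knockout and 20.6, 29.7 and 22.5 with betaine. WT replicate 3 alone reached the betaine range. Acat2, which joins 2 acetyl-CoA molecules, stood at 16.8, 15.5 and 23.8 FPKM in the WT libraries, 26.8, 19.2 and 28.3 in the knockout libraries and 34.7, 30.1 and 29.7 in the betaine libraries; its betaine difference from the knockout was 0.35 ± 0.20, the smallest of the 7.

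Fdps, farnesyl diphosphate synthase, was measured at the lowest level of the 28 genes, 0.453, 0.357 and 0.775 FPKM in the WT libraries, 0.246, 0.1005 and 0.303 in the knockout libraries and 0.310, 1.18 and 1.02 in the betaine libraries. Between 6 and 92 reads lay behind its values. Near-identical copies elsewhere in the genome can take reads from this gene, so its level is uncertain. Its mean over the 9 libraries was 0.527 FPKM, from 0.528 in WT, 0.217 in the knockout and 0.837 with betaine. It thus cleared the filter of 0.5 FPKM only with its betaine values. Its place in counts of genes higher with betaine therefore gives no support. With the filter at 1 FPKM, which leaves Fdps out, the median of the synthesis enzymes between betaine and knockout was 0.75.

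**Figure D2:**
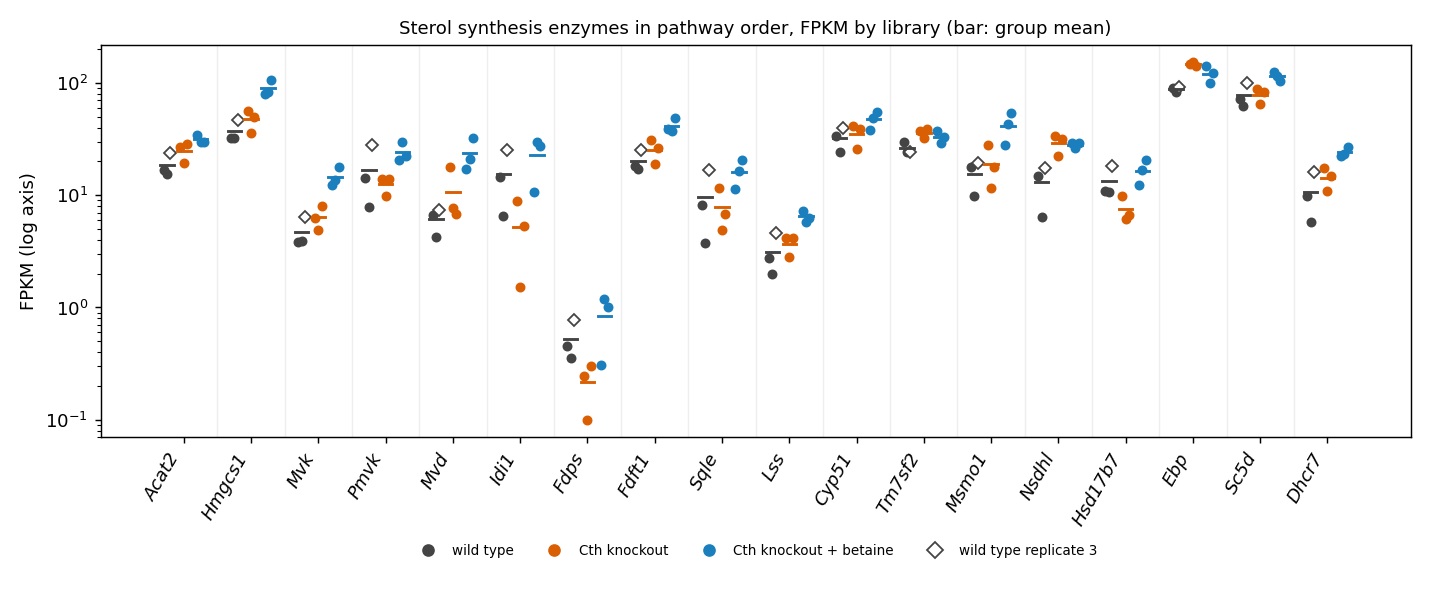
FPKM of the 18 synthesis enzymes on a log axis, in pathway order from Acat2 to Dhcr7; each point is a library, bars are group means of 3 libraries, and WT replicate 3 is drawn as an open diamond. Betaine libraries stand above all others for 7 enzymes, among them Hmgcs1 (80.3 to 105.7 FPKM) and Mvk (12.2 to 17.8 FPKM), and the diamond is the highest WT point for 17 of the 18. These counts were not made over all genes.

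Among the 11 enzymes from squalene to cholesterol the median difference of betaine from knockout was 0.73. Fdft1, squalene synthase and the first enzyme committed to sterols, stood at 18.1, 17.00 and 25.5 FPKM in the WT libraries, 30.7, 18.9 and 26.6 in the knockout libraries and 39.1, 37.6 and 48.7 in the betaine libraries. All betaine libraries exceeded the other 6, and the difference from the knockout was 0.73 ± 0.21 (adjusted p = 0.119). Msmo1, the methylsterol oxidase, was at 17.7, 9.79 and 19.3 FPKM in WT, 28.02, 11.6 and 17.8 in the knockout and 27.9, 42.6 and 54.5 with betaine. Betaine replicate 1 lay just under knockout replicate 1 while the other 2 betaine libraries were far above.

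Lss, which folds squalene epoxide into lanosterol, stood at 2.78, 1.98 and 4.65 FPKM in the WT libraries, 4.13, 2.84 and 4.13 in the knockout libraries and 7.29, 5.81 and 6.31 in the betaine libraries. The betaine libraries were the 3 highest, and WT replicate 3 came next. Dhcr7, the reductase that ends one branch of the route, was at 9.93, 5.77 and 16.2 FPKM in WT, 17.3, 10.9 and 14.8 in the knockout and 22.4, 23.2 and 26.9 with betaine. Its betaine libraries were again the 3 highest. Sc5d, the desaturase before Dhcr7, was at 71.6, 62.0 and 100.3 FPKM in the WT libraries, 88.1, 65.0 and 83.1 in the knockout libraries and 125, 115 and 105 in the betaine libraries, with every betaine library above the other 6 by a smaller margin.

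Sqle, squalene epoxidase, stood at 8.23, 3.77 and 16.9 FPKM in the WT libraries, 11.6, 4.90 and 6.86 in the knockout libraries and 11.3, 16.3 and 20.4 in the betaine libraries. WT replicate 3 and knockout replicate 1 reached into the betaine range, and the difference of betaine from the knockout was 1.04 ± 0.49 (adjusted p = 0.248). Cyp51, the lanosterol demethylase, was at 33.8, 24.4 and 39.4 FPKM in WT, 41.3, 25.6 and 39.1 in the knockout and 38.4, 49.1 and 55.3 with betaine, and its groups overlapped too. Hsd17b7 had its lowest mean in the knockout, and its betaine libraries, at 12.4, 16.7 and 20.55 FPKM, all exceeded the knockout ones, by 1.08 ± 0.26 (adjusted p = 0.0909).

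The 3 enzymes that had risen in the knockout were the only synthesis enzymes with a difference below 0 when betaine was added. The values were −0.13 ± 0.14 for Tm7sf2, −0.03 ± 0.33 for Nsdhl and −0.30 ± 0.15 for Ebp. On the TPM scale they lay above 0, at 0.23, 0.33 and 0.06, where the median of all genes was 0.30. None of these passed on the FPKM scale (adjusted p = 0.617, 0.967 and 0.252). The knockout libraries enter both comparisons, so these signs are not independent of the first.

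The SREBP2 controllers had a median of −0.41 in the knockout and of 0.51 from knockout to betaine, and these values share the same knockout libraries. The first was −0.23 without WT replicate 3 and −0.18 with the trend on exon length removed. Srebf2, which encodes SREBP2 itself, stood at 8.24, 7.24 and 13.6 FPKM in the WT libraries, 7.58, 6.69 and 6.10 in the knockout libraries and 9.86, 11.5 and 11.6 in the betaine libraries. All 3 betaine libraries lay above all 3 knockout libraries, and WT replicate 3 was the highest of the 9. The difference between betaine and knockout was 0.66 ± 0.21 (adjusted p = 0.130).

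Insig1, which retains SCAP in the endoplasmic reticulum and is itself a target of SREBP2, was at 88.6, 56.9 and 137 FPKM in the WT libraries, 84.5, 47.6 and 48.3 in the knockout libraries and 104, 151 and 127 in the betaine libraries. Betaine and knockout did not overlap, whereas the WT libraries ran from the knockout range into the betaine range. Its difference was 1.11 ± 0.33 (adjusted p = 0.120). Insig2, its relative with a liver-specific transcript under other control, was at 65.6, 67.0 and 109 FPKM in WT, 71.9, 85.9 and 74.9 in the knockout and 126, 106 and 73.6 with betaine. Betaine replicate 3 fell among the knockout libraries. Scap was at 19.4, 20.1 and 13.5 FPKM in WT, 14.3, 13.6 and 11.7 in the knockout and 16.1, 16.8 and 14.3 with betaine, where WT replicate 3 lay with the knockout libraries and apart from the other 2.

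**Figure D3:**
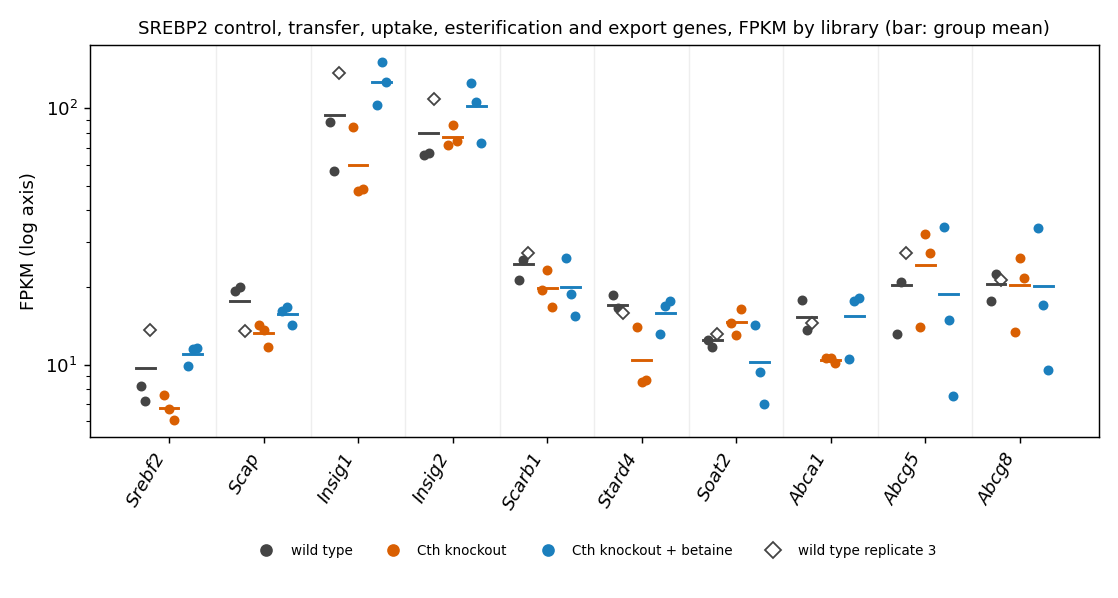
FPKM on a log axis of the 4 SREBP2 controllers and the 6 uptake, transfer, esterification and export genes; each point is a library, bars are group means of 3 libraries, and WT replicate 3 is an open diamond. Srebf2 and Insig1 betaine points all lie above the knockout points, Abca1 and Stard4 knockout points all lie under the WT points, and the Abcg5 and Abcg8 betaine points are the widest of the panel (7.53 to 34.3 and 9.50 to 34.1 FPKM).

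Without WT replicate 3, whose spread enters the shared variance estimate though the library belongs to neither group, 4 of the 28 genes passed as higher with betaine than in the knockout, against 1.11% of all genes. They were Hmgcs1 (adjusted p = 0.0463), Mvk (adjusted p = 0.0391), Hsd17b7 (adjusted p = 0.0470) and Srebf2 (adjusted p = 0.0463); their log2 differences did not change. Without betaine replicate 1, 5 were higher (Hmgcs1, Mvk, Fdps, Hsd17b7 and Abca1), against 4.03% of all genes, and Soat2 was lower, against 3.37%. Of the 5, Fdps cleared the expression filter only with its betaine values, so its call gives no support. On the TPM scale, where the median of all genes was 0.30, 13 were higher (13.5% of all genes): Srebf2, Scap, Insig1, Hmgcs1, Mvk, Mvd, Fdft1, Lss, Msmo1, Hsd17b7, Sc5d, Stard4 and Abca1. The median of the synthesis enzymes was then 1.09.

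Betaine-treated mice lacking Cth were then set against WT, a comparison that reuses both sets of libraries. The groups compared differ both in genotype and in betaine, which cannot be told apart here, since no WT group drank betaine. Of the 28 genes 9, all of them synthesis enzymes, were higher in the betaine group than in WT and none was lower. The 9 comprise 4 of the mevalonate steps (Acat2, Hmgcs1, Mvk, Mvd) and 5 of the steps from squalene on (Fdft1, Lss, Msmo1, Nsdhl, Dhcr7). They make up 32.1% of the 28 genes and 50% of the synthesis enzymes, where 5.87% of all genes were higher and 5.78% lower. All 18 synthesis enzymes lay above 0, against 50.6% of all genes, with a median of 0.83 beside 0.00 over all genes. Betaine libraries lay wholly above WT libraries for 11 of the 28 (16.1% of all genes).

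The largest called difference was that of Mvd, 1.84 ± 0.37 (adjusted p = 0.0198), a ratio of means of 3.86 (chr8:122433601-122443422, minus strand). Mvk (chr5:114444269-114460591, plus strand) followed with 1.55 ± 0.23 (adjusted p = 0.00767; means 14.6 ± 2.90 against 4.70 ± 1.42 FPKM, SD, n = 3). Hmgcs1 (chr13:119690379-119708260, plus strand) had 1.28 ± 0.21 (adjusted p = 0.0105; means 90.0 ± 13.7 against 37.2 ± 8.57 FPKM). Mvk and Hmgcs1 stayed past the threshold in all 9 fits that left out 1 library, and Mvd in 7; it was lost without WT replicate 2 or betaine replicate 3 (adjusted p up to 0.0697).

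Msmo1 differed by 1.39 ± 0.37 (adjusted p = 0.0451), Dhcr7 by 1.25 ± 0.32 (0.0364) and Nsdhl by 1.20 ± 0.33 (0.0465). Fdft1 differed by 1.04 ± 0.21 (0.0190), Lss by 1.00 ± 0.25 (0.0359) and Acat2 by 0.76 ± 0.20 (0.0382). These 6 calls depended on single libraries. Fdft1 lost its call without WT replicate 1, WT replicate 2 or betaine replicate 3 (adjusted p up to 0.0739). Acat2, Dhcr7 and Lss kept theirs only without WT replicate 3 or knockout replicate 2 (up to 0.106, 0.114 and 0.102 otherwise), Nsdhl only without WT replicate 3 (up to 0.128) and Msmo1 only without WT replicate 3 or knockout replicate 1 or 2 (up to 0.142). No difference changed sign, and the smallest were 0.64 for Acat2, 0.76 for Lss and 0.77 for Nsdhl on the log2 scale.

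**Figure D4:**
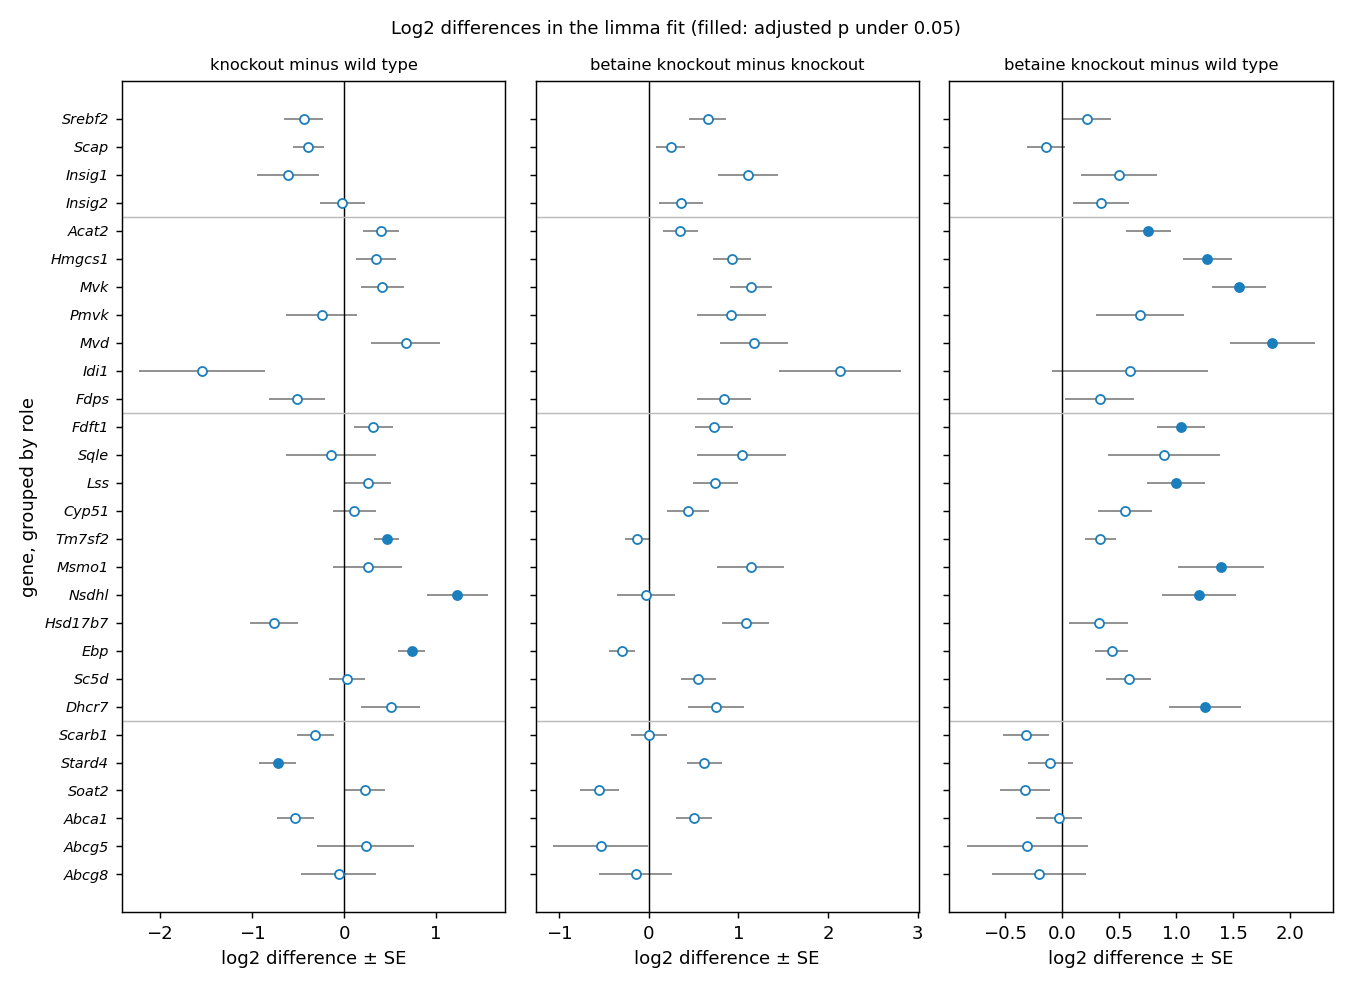
Log2 differences with their standard errors (horizontal bars) for the 28 genes in the 3 comparisons, grouped by role and in pathway order; filled points passed an adjusted p of 0.05. Filled points number 4 in the knockout comparison, none in the betaine comparison with the knockout and 9 in the betaine comparison with WT, where every synthesis enzyme lies right of 0.

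Without WT replicate 3 the same 9 genes passed and Pmvk (1.14, adjusted p = 0.0308) and Sc5d (0.78, adjusted p = 0.0203) joined them, 11 genes against 5.59% of all. The median of the synthesis enzymes was then 1.18. On the TPM scale 4 passed (4.91% of all genes were higher), Hmgcs1, Mvk, Mvd and Fdft1, at differences of 1.22, 1.51, 1.80 and 0.99; there the median of all genes was −0.04. With the 3 knockout libraries left out of the fit 4 passed, where 2.98% of all genes passed in either direction.

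**Figure D5:**
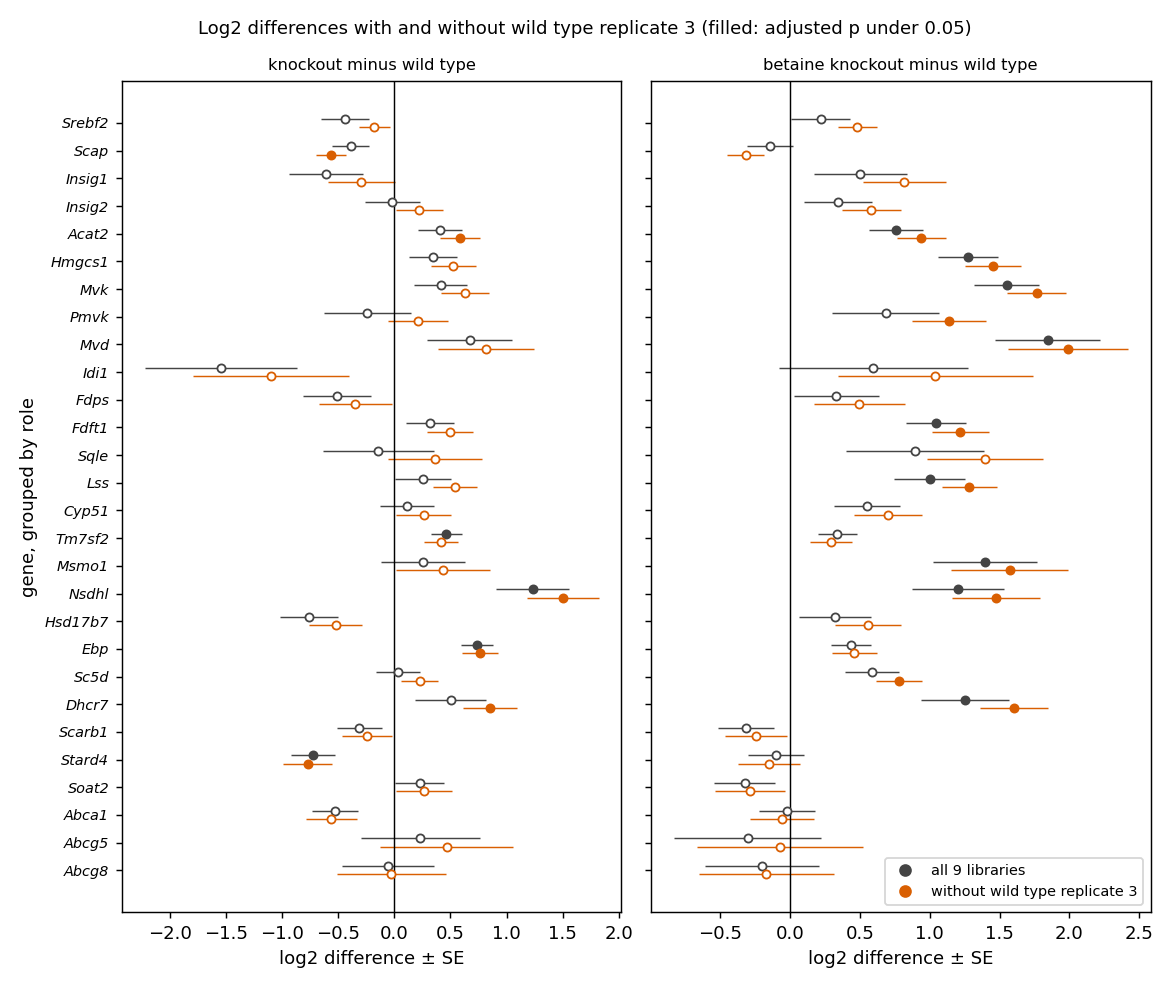
Log2 differences with standard errors for the 28 genes with all 9 libraries (grey) and without WT replicate 3 (orange), in the 2 comparisons that use WT; filled points passed an adjusted p of 0.05. Without that library the median of the synthesis enzymes moves from 0.29 to 0.46 in the knockout comparison and from 0.83 to 1.18 in the betaine comparison with WT.

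The libraries can also be ordered by the synthesis enzymes as a whole. The mean FPKM of 10 of the 18 followed the order WT, knockout, betaine from low to high, 15 had their highest mean with betaine, and the other 3 (Tm7sf2, Nsdhl, Ebp) had it in the knockout. The knockout mean was the lowest for 5. None of these counts was made over all genes, so no background share stands beside them. Relative to the WT mean, the median of the 18 log2 values was −0.02, −0.34 and 0.38 in the WT libraries, 0.50, −0.07 and 0.35 in the knockout and 0.79, 0.93 and 0.98 with betaine. The 3 betaine libraries were the highest by this median, while the knockout and WT libraries interleaved. Within the knockout, replicate 2 was the lowest library for 16 of the 18 enzymes, as WT replicate 2 was within WT for 16.

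None of the 6 genes of uptake, transfer, esterification and export passed between betaine and WT. Their median difference was −0.25, and all 6 lay below 0 (5 of 6 with libraries scaled by recovered read totals). Scarb1, the receptor for high-density lipoprotein, stood at 21.4, 25.7 and 27.2 FPKM in the WT libraries, 19.6, 23.3 and 16.7 in the knockout libraries and 26.0, 18.9 and 15.5 in the betaine libraries, and the 3 groups overlapped. Soat2, which esterifies cholesterol in hepatocytes, was at 12.5, 11.7 and 13.1 FPKM in WT, 14.6, 13.0 and 16.5 in the knockout and 14.3, 9.34 and 7.03 with betaine. Betaine replicates 2 and 3 were the lowest of the 9 libraries and replicate 1 lay among the knockout ones, and the difference from the knockout was −0.55 ± 0.22 (adjusted p = 0.182).

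Abca1 with betaine was at 10.47, 17.7 and 18.2 FPKM, where replicate 1 lay among the knockout libraries and the other 2 reached the highest WT library. Its difference from the knockout was 0.50 ± 0.20 (adjusted p = 0.187) and that of Stard4 was 0.62 ± 0.20 (adjusted p = 0.129). Against WT the betaine values were −0.02 ± 0.20 for Abca1 and −0.10 ± 0.20 for Stard4.

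Abcg5 and Abcg8 encode the 2 parts of the pump that secretes sterol into bile and lie side by side (chr17:84658234-84683011, minus strand, and chr17:84676302-84700333, plus strand). Their annotated bodies overlap on opposite strands, and nothing in the labels says that counting used strand, so their values are not fully separate. Abcg5 stood at 13.1, 20.98 and 27.4 FPKM in the WT libraries, 14.1, 32.2 and 27.4 in the knockout libraries and 34.3, 15.0 and 7.53 in the betaine libraries. Abcg8 was at 17.7, 22.6 and 21.47 FPKM in the WT libraries, 13.4, 26.0 and 21.8 in the knockout libraries and 34.1, 17.1 and 9.50 in the betaine libraries. Both were highest of all libraries in betaine replicate 1 and lowest in betaine replicate 3, and no comparison passed for either (smallest adjusted p = 0.576, for Abcg5 between betaine and knockout, and 0.774 for Abcg8 between betaine and WT). Betaine replicate 1 thus stood apart from replicates 2 and 3 in the pump, in Soat2, in Abca1 and in Idi1.

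Other genes of the pathway were counted from lists chosen by role, against the 12.8% of all genes that were higher and 12.7% that were lower in the knockout, and the 5.87% and 5.78% between betaine and WT. Of 14 genes of sterol sensing and of the machinery that degrades its proteins, 2 were higher and 4 lower in the knockout. They include Rnf145 at −0.77 ± 0.19 (adjusted p = 0.0188) and Aup1 at 0.74 ± 0.19 (0.0230). Between betaine and WT, 1 was higher, Srebf1, which encodes SREBP1, at 1.28 ± 0.21 (adjusted p = 0.0103), and 2 were lower, Rnf145 and Mylip. Srebf1 stood at 12.6, 18.1 and 22.4 FPKM in WT, 14.9, 16.7 and 17.3 in the knockout and 47.3, 47.4 and 34.0 with betaine. The betaine libraries were all above the rest, and its difference from the knockout did not pass (1.35 ± 0.21, adjusted p = 0.0608) until WT replicate 3 was left out (adjusted p = 0.0229).

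Of 12 genes that supply acetyl-CoA, donate electrons to the sterol oxidases or branch off to other isoprenoids, 3 were higher and 3 lower in the knockout. Cyb5a, the cytochrome b5 that feeds Sc5d and Msmo1, differed by 0.93 ± 0.17 (adjusted p = 0.00769), and its reductase Cyb5r3 by 0.76 ± 0.15 (0.00928). Nus1, a subunit of the enzyme that builds the dolichol chain, was lower, at −0.57 ± 0.13 (adjusted p = 0.0157). Cyb5a stood at 292, 268 and 256 FPKM in WT and at 519, 548 and 492 in the knockout, with no overlap, as for Ebp. With betaine 4 were higher than in WT and none lower, among them Acss2, which makes acetyl-CoA from acetate, at 1.32 ± 0.30 (adjusted p = 0.0255), Coq2 at 0.67 ± 0.12 (0.0120) and Cyb5r3 at 0.69 ± 0.15 (0.0217).

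Of 14 genes of lipoprotein uptake, the lysosome and transport inside the cell, 12 were tested. In the knockout 2 were higher and 4 lower, with Lipa, the lysosomal lipase that frees cholesterol from its esters, at −0.93 ± 0.13 (adjusted p = 0.00546), Osbp at −0.59 ± 0.16 (0.0286) and Lrp1 at −0.56 ± 0.16 (0.0332). With betaine Lipa remained lower than in WT (−0.47 ± 0.13, adjusted p = 0.0434) and Tmem97 was higher (0.66 ± 0.17, adjusted p = 0.0375). Of 9 tested genes of 10 for esterification, export acceptors and bile acid synthesis, 1 was higher and 2 lower in the knockout: Apoa1 (0.81 ± 0.25, adjusted p = 0.0413), Pltp (−0.92 ± 0.23, 0.0186) and Cyp27a1 (−0.52 ± 0.12, 0.0170). Cyp27a1 was also the 1 gene of that list that was lower with betaine than in WT. No gene of any of these lists passed between betaine and the knockout with all 9 libraries.

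On the TPM scale, where 4.93% of all genes were higher and 30.7% lower in the knockout, the counts were 0 higher and 7 lower for sensing, 1 and 5 for supply and electron donors, 0 and 7 for uptake and transport, and 0 and 5 for esterification and catabolism. Without WT replicate 3, 9.99% of all genes were higher and 11.7% lower in the knockout. The knockout counts then became 0 higher and 3 lower for sensing and 4 and 1 for supply and electron donors. They were 1 and 2 for uptake and transport, and 0 and 2 for esterification and catabolism. Between betaine and WT the counts became 1 and 1, 3 and 1, 1 and 0, and 0 and 1 in the same order of lists. There 5.59% of all genes were higher and 6.4% lower. Between betaine and knockout 1 gene then passed in the sensing list, Srebf1, and 1 in the supply list, Acly, which cleaves citrate to acetyl-CoA. Both were higher with betaine, as were 1.11% of all genes. Among the genes named, Aup1 (adjusted p = 0.0525), Osbp (0.0510) and Apoa1 (0.0721) lost their knockout calls in that fit, and Mylip (0.0642), Tmem97 (0.0627) and Lipa (0.0699) their calls between betaine and WT.

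Fatty acid synthesis, the side of the pathway under SREBP1, was measured as a neighbouring route in 10 tested genes of 11. Gpam (−2.72 ± 0.54, adjusted p = 0.0112) and Scd1 (−1.70 ± 0.42, adjusted p = 0.0201) were lower in the knockout, as were 12.7% of all genes. The median of that list was −0.42 between knockout and WT, 0.82 between betaine and knockout and 0.09 between betaine and WT, beside 0.29, 0.80 and 0.83 for the sterol synthesis enzymes; these differences between the lists were not tested. Without WT replicate 3 the medians of the fatty acid list were −0.02, 0.82 and 0.29. Gpam (−2.42, adjusted p = 0.0273) and Scd1 (−1.35, adjusted p = 0.0485) then still passed as lower in the knockout (11.7% of all genes). In the same fit Thrsp passed as higher in the knockout (9.99% of all genes). Elovl6, Fasn and Gpam passed there as higher with betaine than in the knockout (1.11%), and Acacb, Elovl6, Fasn and Thrsp as higher with betaine than in WT (5.59%).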

How the data were processed

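Poly(A)-selected RNA of mouse liver was sequenced in 9 libraries, per the labels' protocols, and the authors deposited 1 table of FPKM values for 54532 genes. HISAT2 2.0.5, featureCounts 1.5.0-p3, DESeq2 1.16.1 and the build mm10 are named in the submitters' processing notes without their roles. From the steps of the low FPKM values, which were whole reads within 0.05 for 98.3% to 98.6% of values per library, read totals of 15184982 to 17473962 were recovered using GENCODE M21 exon lengths; 3 reads in 1 kb correspond to 0.162 to 0.222 FPKM.

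The test covered genes whose FPKM averaged 0.5 or more across all libraries and used limma 3.58.1 in R 4.3.3 on log2(FPKM + 0.5), with 1 mean per group and eBayes with trend and robust settings, with a two-sided p and the Benjamini-Hochberg adjustment over all 11852 genes within a comparison (threshold 0.05). The pseudocount makes differences of low genes too small. The fit was tested on simulated data. The 28 genes, the roles, the other lists, the markers and the motifs were chosen with earlier results of these data known. All 28 genes are named; of each other list at most 3 genes per comparison with the smallest p among those past the threshold are named (1 such gene is not reported here), and the values of Srebf1 and Cyb5a by library and the names Por and Acly were added after their values were seen. Columns were matched to samples by the wild type, knockout and betaine names and numbers in the labels. Alternatives changed the pseudocount, the filter, the scale (TPM, quantile, recovered read totals), the fit, the exon length trend, the replicate block and the libraries left out; the read total scale and the joint removal of WT replicate 3 and the length trend were chosen after seeing the data.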

Additional observations from a re-analysis of the deposited data

How the results depend on the processing

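Over 1761 values of single genes under 21 alternatives, the sign changed 65 times, never for a gene past the threshold on either side, while 90 calls were lost and 49 gained; the causes were not tested. In knockout minus WT the 4 calls became 1 without a filter on low values (more genes tested) and 2 with the exon length trend removed. They ranged from 1 to 6 when 1 library was left out. The share of all genes called moved as well, from 25.6% to 7.34% without a filter and 17.5% with the trend removed. With 1 library left out that share ran from 7.56% to 27.3%. The median of the synthesis enzymes was −0.10 on the TPM scale. Between betaine and knockout the 0 calls became 13 on the TPM scale, 4 without WT replicate 3 and with the length trend removed, and 0 to 6 without 1 library. Of all genes 0.0422% were called in the main fit, and 14.1%, 1.81% and 0% to 7.41% in these settings, in that order. Between betaine and WT the 9 calls became 3 without a filter, 4 on the TPM scale and 4 with only the 6 libraries of the comparison (fewer samples). They ranged from 2 to 11 without 1 library. The lowest, 2, came without WT replicate 2 and without betaine replicate 3. Of all genes 11.7% were called in the main fit, and 2.09%, 9.16%, 2.98% and 2.96% to 12.2% in these settings, in that order. The median of the synthesis enzymes between betaine and WT ranged from 0.54 to 1.18. Scaling by recovered read totals put the median of all genes at −0.09, 0.16 and 0.06 in the 3 comparisons. It gave 5, 0 and 10 calls among the 28, against 26.3%, 0.565% and 12.8% of all genes. With the replicate number as a block, 3, 0 and 8 of the 28 passed, against 18.6%, 0% and 5.66% of all genes. Same-numbered libraries correlated between −0.23 and 0.10 in their deviations (9 pairs) and differently numbered ones between −0.14 and 0.26. The numbers were therefore not taken to pair the libraries. Fdps rests on 6 to 92 reads per library.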
